A study of Homo sapiens with 6 samples.

Results

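Respiratory complex I, the NADH dehydrogenase of the mitochondrial inner membrane, was followed here through the mRNAs of its subunits encoded in the nucleus. The genes were taken by symbol: protein-coding genes named NDUFA, NDUFB, NDUFC, NDUFS or NDUFV followed by a number, without the assembly factors named NDUFAF, and with more than 1 CPM, a count divided by the size of its library, in 3 libraries or more. There were 37 such genes in the count table and all 37 passed this minimum, out of 16974 genes tested and 58051 genes listed. Total RNA was sequenced in 6 libraries of DLD-1, an established human colorectal adenocarcinoma line. In all 6, both a degron that answers to auxin and the fluorescent protein NeonGreen had been put on TPR at its own locus (genotype AID-NeonGreen-TPR), and the cells also carried the plant ubiquitin ligase subunit TIR1 that auxin needs to act. The 3 LMB libraries received 200 nM Leptomycin B for 3 h, which blocks the nuclear export receptor CRM1. The 3 LMB+auxin libraries received the same Leptomycin B for 3 h and, starting 1 h after it, 1 mM auxin for the last 2 h, which triggers destruction of the TPR protein of the nuclear pore basket. The titles of all 6 libraries read 2 h, whereas the study's methods give 3 h for Leptomycin B. The comparison asks what loss of TPR adds where CRM1 is already blocked. No library without Leptomycin B was analysed here, and none without the degron, so each value below compares a pair of treatments of 1 tagged line.

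Complex I takes electrons from NADH and passes them through flavin and iron-sulphur clusters to ubiquinone, while its membrane arm pumps protons out of the mitochondrial matrix. The NADH-oxidising N module and the ubiquinone-reducing Q module form the arm that reaches into the matrix, and the membrane arm has a proximal part next to the Q module and a distal part at its far end. The catalytic core is shared with bacteria and its membrane part is encoded by mitochondrial DNA, whereas the accessory subunits that surround it are all made from nuclear genes in the cytosol. Their mRNAs are mostly short, come from genes with few exons, and are known as housekeeping transcripts that turn over slowly. RNA turnover itself was not measured here.

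The coding starts of 4 subunits are shown first because the order of the results below followed base composition. NDUFS4 and NDUFA4 had the 2 highest fitted changes of the family, and NDUFS7 and NDUFB7 were the 2 richest in GC and among its 3 lowest. Each is the first 90 bases of the coding sequence of the MANE Select transcript, the 1 reference transcript per gene of GENCODE 44, with G and C in capitals.
NDUFS7: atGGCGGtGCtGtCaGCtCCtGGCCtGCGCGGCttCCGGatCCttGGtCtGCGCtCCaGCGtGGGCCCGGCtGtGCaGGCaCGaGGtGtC
NDUFB7: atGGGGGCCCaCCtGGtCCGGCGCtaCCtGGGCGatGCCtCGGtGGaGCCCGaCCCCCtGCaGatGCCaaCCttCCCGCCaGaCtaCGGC
NDUFA4: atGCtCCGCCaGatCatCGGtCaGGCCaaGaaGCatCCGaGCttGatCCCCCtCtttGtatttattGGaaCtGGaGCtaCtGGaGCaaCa
NDUFS4: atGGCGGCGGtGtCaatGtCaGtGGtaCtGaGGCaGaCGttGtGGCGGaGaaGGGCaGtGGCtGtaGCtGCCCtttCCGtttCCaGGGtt
G and C made up 66.9% of the whole NDUFS7 transcript and 64.9% of that of NDUFB7, against 39.4% for NDUFA4 and 42.9% for NDUFS4. NDUFS7 (ENSG00000115286) lies at chr19:1383527-1395589 on the plus strand and NDUFB7 (ENSG00000099795) at chr19:14566078-14572066 on the minus strand. NDUFA4 (ENSG00000189043) lies at chr7:10931943-10940153 on the minus strand and NDUFS4 (ENSG00000164258) at chr5:53560633-53683338 on the plus strand, all in GRCh38.

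The promoters of the subunit genes were searched for the letters of NRF1, the nuclear respiratory factor that drives genes of the respiratory chain, and of other factors. RefSeq promoters (GRCh38.p14, from 250 bases before to 50 bases after the annotated start) were matched by symbol for 31 of the 37 genes and searched on both strands. The NRF1 core GCATGCG was found in 6 of them (19.4%), against 4.74% of 27305 promoters of all genes and 7.66% of 10008 promoters of tested coding genes. In 4 of the 6 it lay upstream of the start with its flanks, and these windows of 30 bases are shown with the core in capitals.
NDUFA6: tctgtagatgaGCATGCGcagcacccaccg
NDUFB4: gagcacttcgcGCATGCGcatatcaccgag
NDUFS6: agaagccgtgcGCATGCGttagcgctaagc
NDUFS7: ttccggtttccGCATGCGctccgagccgct
They lie at chr22:42090920-42090949 (minus strand), chr3:120596168-120596197 (plus), chr5:1801352-1801381 (plus) and chr19:1383823-1383852 (plus), with the core beginning 166, 157, 44 and 73 bases before the start. In NDUFA6 and NDUFB4 the core runs on into TGCGCA, a shorter NRF1 site, and in NDUFS6 it follows on from one, so these motifs overlap there. This shorter site was present in 32.3% of the subunit promoters, against 9.76% of all and 16% of those of tested coding genes. The YY1 core AAGATGG, which holds the letters of a start codon, was present in 29% against 7.11% and 9.57%, and in 8 of its 9 genes it stood 11 to 26 bases after the start. The shares of the remaining motifs were below those of tested coding genes. The ETS letters CCGGAA were present in 22.6%, against 20.1% of all promoters and 34.8% of those of tested coding genes. CCAAT was present in 25.8% against 39.7% and 43.5%, and the SP1 letters GGGCGG in 67.7% against 48.3% and 77.3%. The 6 genes with the NRF1 core had fitted log2 changes between −0.14 (NDUFS7) and 0.11 (NDUFA8). Between them were NDUFA5 at 0.00, NDUFS6 at 0.01, NDUFA6 at 0.05 and NDUFB4 at 0.07. NDUFS7 was the lowest of the range described below, while its highest gene, NDUFS4, was not among them.

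The 37 genes lay on 18 chromosomes. Their MANE Select transcripts had a median of 696 bases, from 317 (NDUFB1) to 11660 (NDUFS1), against a median of 3330 over 12239 tested coding genes. The genes spanned a median of 13319 bases, from 2438 (NDUFB10) to 133294 (NDUFA10), against 33292. Median transcript GC was 49.0% in the subunits and 48.5% in tested coding genes. Levels between genes were compared as CPM per kilobase of all exons of the gene. They were compared a second time per kilobase of the MANE Select transcript. In many of these genes all annotated exons together are much longer than that transcript, which lowers the first measure. The second divides the counts of all exons by the shorter length, so it can be too high. The use of single exons was not measured.

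Every subunit gene had 647 to 5787 counts per library, although some counts may belong to genes with shared exons, as described below. Per exonic kilobase the median level was 19.4 and ran from 3.85 to 144. NDUFA1, a small single-helix subunit of the proximal membrane arm, was the highest, at 146, 160 and 132 in the LMB libraries and 138, 147 and 139 in LMB+auxin. NDUFS5, a subunit on the intermembrane side, followed at 105, 113 and 107 in LMB and 96.2, 113 and 103 in LMB+auxin. NDUFB7 came next, at 84.3, 92.8 and 82.8 in LMB and 63.7, 86.6 and 86.6 in LMB+auxin. These 3 did not overlap each other in any library, while the LMB and LMB+auxin values of each overlapped. At the low end, NDUFV3 lay at 4.06, 3.92 and 4.12 in LMB and 4.16, 4.09 and 4.05 in LMB+auxin per exonic kilobase. NDUFA5 was at 3.90, 3.97 and 3.69 in LMB and 4.19, 3.59 and 3.78 in LMB+auxin. NDUFB9 was at 3.60, 4.18 and 3.73 in LMB and 3.44, 4.14 and 4.01 in LMB+auxin. These lowest 3 could not be ordered beyond their spread. The place of NDUFB9 depended on the length used: it has 16591 exonic bases and a transcript of 691 bases, and by transcript length it stood at 92.5, rank 12 of 37. By transcript length NDUFA13 was the highest at 179 and NDUFV3 the lowest at 4.50, with a median of 71.1. NDUFA13 shares 16.1% of its exonic bases with another gene on its strand, so part of its counts may belong to that gene.

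**Figure D1:**
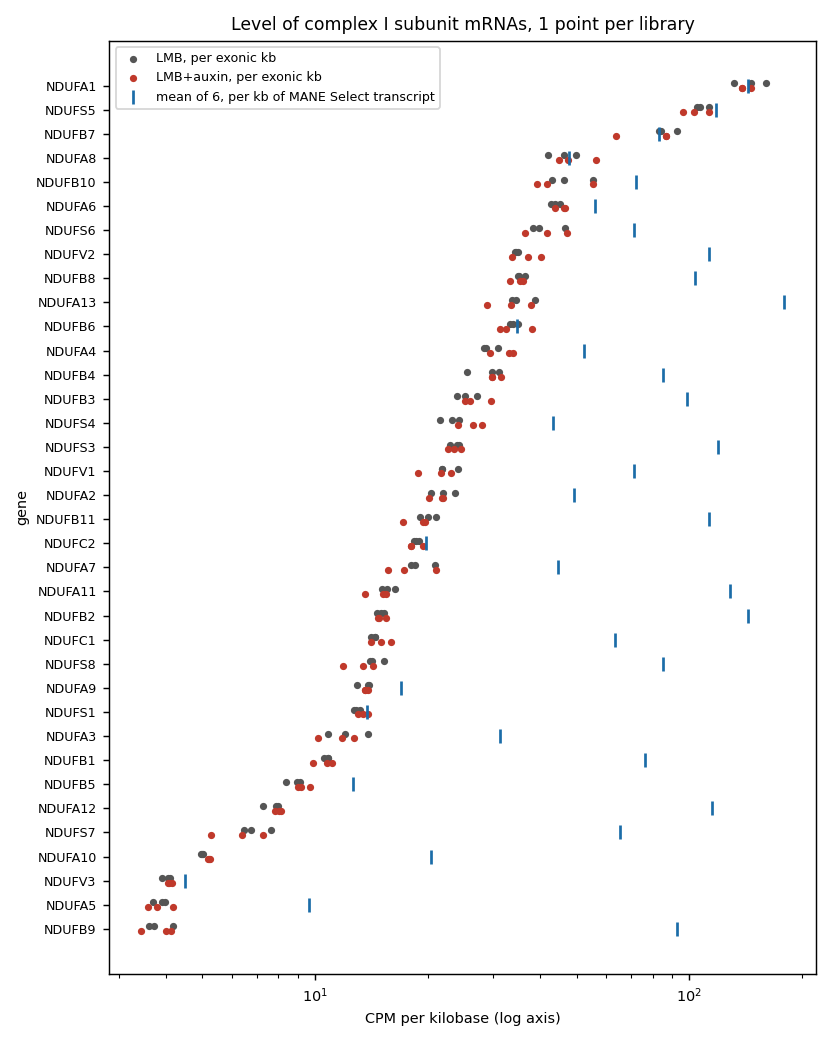
Level of 36 of the complex I subunit mRNAs (rows) as TMM-scaled CPM per kilobase on a log axis; grey points are the 3 LMB and red points the 3 LMB+auxin libraries per kilobase of all exons, and the blue bar is the mean of the 6 libraries per kilobase of the MANE Select transcript. The levels ran from 3.85 to 144 per exonic kilobase, and the red and grey ranges overlapped in all genes but NDUFA10.

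The summed level of the subunit mRNAs was alike with and without auxin. The 37 genes together held 2304, 2450 and 2363 CPM in LMB against 2292, 2427 and 2393 CPM in LMB+auxin. The sums were 2372 ± 73.7 and 2371 ± 70.4 CPM (SD over 3 libraries), so the group means differed by far less than the libraries within a group. In bulk RNA of this kind, a change in the amount of an mRNA per cell cannot be told apart from a change in the number of cells that hold it. The fitted log2 fold changes, LMB+auxin over LMB, ran from −0.14 (NDUFS7) to 0.18 (NDUFS4), with 18 above and 19 below 0. Their median was 0.00 over the subunits and 0.00 over all tested genes, and the median size was 0.06 against 0.08 over all tested genes.

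No subunit was called by the quasi-likelihood test of edgeR, where a call needs a Benjamini-Hochberg adjusted p under 0.05 over all tested genes and at least a 1.3-fold change. This test called 0.00589% of all tested genes (1 of 16974), and the DESeq2 and limma-voom tests called 0 of the 37 as well. The smallest adjusted p among the subunits was 0.954. At an unadjusted p under 0.05 there were 0 of 37, against 4.37% of all tested genes (741); without LMB+auxin replicate 2 there were 5 of 37 beside 1519 of all tested genes, and without LMB+auxin replicate 3 there was 1 beside 464. The 95% intervals bound what these libraries leave possible. For 34 of 37 genes the whole interval lay inside a 1.3-fold change, which is 0.38 on the log2 scale. The 3 exceptions, NDUFS7, NDUFB7 and NDUFB10, each reached down to −0.40, a level of 0.760 times that in LMB. The highest upper bound was 0.37 (NDUFS4).

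The replicate numbers of the labels paired the libraries, so the fit was also made with the replicate number as a block. It called 1.19% of all tested genes (202) and again 0 of 37 subunits, with all 37 intervals inside a 1.3-fold change and a smallest adjusted p of 0.0942 (NDUFS4). At an unadjusted p under 0.05 the blocked fit had 5 subunits, or 13.5%, against 19.9% of all tested genes. NDUFS4 and NDUFA4 were the 2 higher ones (8.11% of all tested genes were higher) and NDUFS7, NDUFS8 and NDUFB7 the 3 lower ones (11.8% were lower). The share of subunits at that threshold was below that of the tested genes as a whole, and none of the 5 passed the adjusted threshold. In the blocked fit without replicate 1, 2 or 3 of both groups, 2, 6 and 4 subunits stood at that threshold, beside 2474, 2672 and 1975 of the 16974 tested genes.

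**Figure D2:**
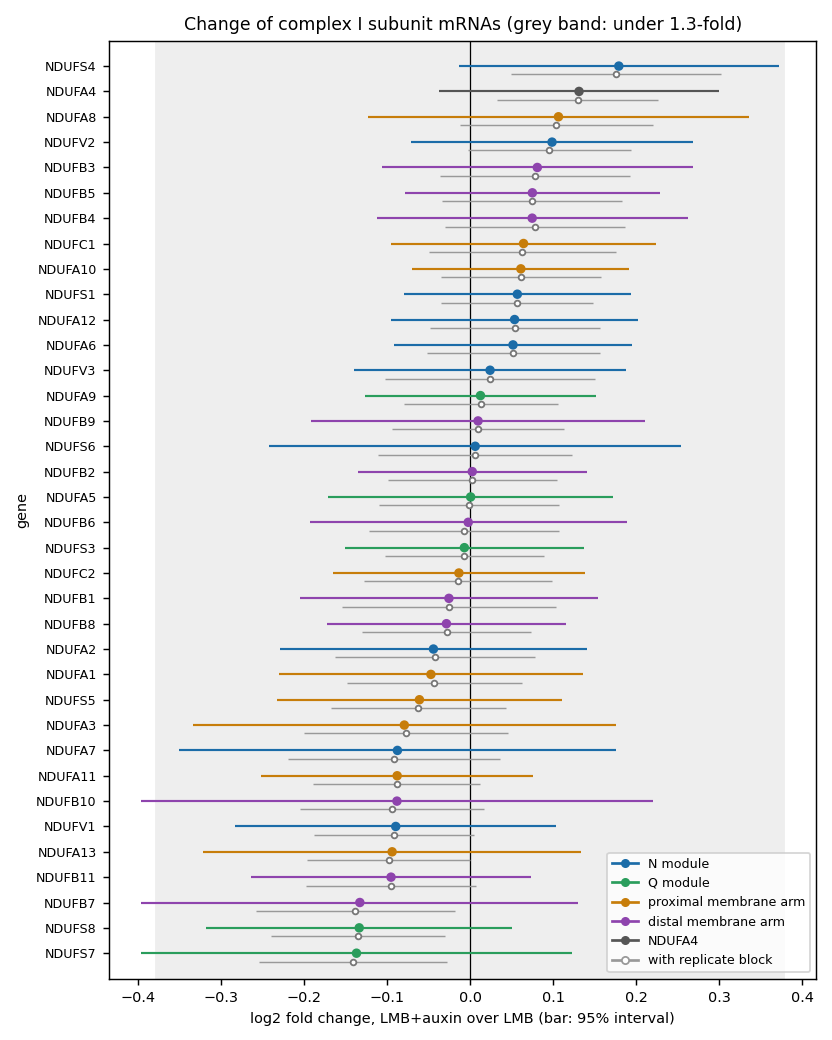
Fitted log2 fold change of 36 of the subunit mRNAs, LMB+auxin over LMB, with its 95% interval, in the fit without (coloured by module) and with (open grey circles) the replicate block; the grey band spans changes under 1.3-fold. All points lie between −0.14 and 0.18, the unblocked intervals of all but NDUFS7, NDUFB7 and NDUFB10 lie inside the band, and the blocked intervals are narrower and all inside it.

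The N module held 10 genes, of which 7 lay above and 3 below 0, with a median log2 change of 0.04. NDUFV1, which binds NADH and the flavin, was at 110, 122 and 111 CPM in LMB against 95.7, 117 and 110 CPM in LMB+auxin. NDUFV2, its iron-sulphur partner, was at 94.3, 92.9 and 93.4 CPM in LMB against 109, 91.1 and 100 CPM in LMB+auxin. NDUFS1, the largest subunit and carrier of several iron-sulphur clusters, was at 157, 155 and 160 CPM in LMB against 164, 159 and 169 CPM in LMB+auxin. These 3 core subunits form 1 unit of the enzyme, and their fitted log2 changes were −0.09 ± 0.09, 0.10 ± 0.08 and 0.06 ± 0.06 (SE), with overlapping groups in each. NDUFV2 shares 28.4% of its exonic bases with an unnamed lncRNA gene on its own strand, and NDUFS1 11.6% with 1 on the opposite strand.

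NDUFS4, an accessory subunit that joins the N module to the rest of the enzyme, had the largest fitted change among the 37. It was at 25.4, 27.4 and 28.6 CPM in LMB against 32.8, 31.0 and 28.3 CPM in LMB+auxin, so that only LMB+auxin replicate 3 lay within the LMB range. Its log2 change was 0.18 ± 0.09 (SE), at an edgeR adjusted p of 0.954 without and 0.0942 with the block. Within the pairs it was 0.37, 0.18 and −0.01, with pair 3 going the other way. NDUFV3, the subunit lowest per transcript kilobase, was at 25.7, 24.8 and 26.1 CPM in LMB against 26.4, 25.9 and 25.7 CPM in LMB+auxin, with a log2 change of 0.02 ± 0.07 (SE). The 5 accessory N-module genes not yet described, NDUFA2, NDUFA6, NDUFA7, NDUFA12 and NDUFS6, had log2 changes from −0.09 to 0.05.

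The Q module held 6 genes, of which 2 lay above and 4 below 0, with a median of −0.02. It contained the 2 lowest fitted changes of the family. NDUFS7, which carries the terminal iron-sulphur cluster that hands electrons to ubiquinone, was at 50.3, 56.9 and 48.2 CPM in LMB against 39.5, 54.3 and 47.6 CPM in LMB+auxin. Its log2 change was −0.14 ± 0.12 (SE), with an edgeR adjusted p of 0.954 without and 0.139 with the block. It was lower in each of the 3 pairs, at −0.35, −0.07 and −0.02, of which pair 1 was by far the largest. NDUFS7 shares 36.1% of its exonic bases with an lncRNA gene on the opposite strand, the largest overlap in the family. NDUFS8, which also carries iron-sulphur clusters on the way to ubiquinone, was at 64.4, 69.2 and 63.4 CPM in LMB against 53.8, 64.8 and 61.0 CPM in LMB+auxin. Its log2 change was −0.13 ± 0.08 (SE), with pair values of −0.26, −0.09 and −0.05, and it shares no exonic base with another gene.

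NDUFS3, another core subunit of the Q module, lay nearer to 0. It was at 103, 110 and 108 CPM in LMB against 102, 106 and 111 CPM in LMB+auxin. Its log2 change was −0.01 ± 0.06 (SE), and the groups overlapped. NDUFA5, an accessory subunit, was at 53.6, 54.5 and 50.7 CPM in LMB against 57.6, 49.3 and 52.0 CPM in LMB+auxin, and its mean was 53.0 CPM in both groups. Over the 7 catalytic core subunits encoded in the nucleus, 2 lay above and 5 below 0, and none was called.

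The proximal membrane arm held 9 genes, of which 3 lay above and 6 below 0, with a median of −0.05. NDUFA13, also known as GRIM-19, was at 91.2, 105 and 93.3 CPM in LMB against 78.2, 102 and 90.7 CPM in LMB+auxin. NDUFA8, a cysteine-rich subunit of the intermembrane side, was at 33.8, 40.0 and 37.1 CPM in LMB against 36.0, 45.4 and 38.1 CPM in LMB+auxin. The log2 changes were −0.09 ± 0.10 and 0.11 ± 0.10 (SE), and in both genes replicate 2 was the highest library of its group. Without LMB+auxin replicate 2 the change of NDUFA8 was 0.0039, and without LMB replicate 2 it was 0.1738. NDUFA1 was at 61.5, 67.5 and 55.4 CPM in LMB against 58.3, 61.7 and 58.3 CPM in LMB+auxin, and NDUFS5 at 57.6, 62.0 and 58.5 CPM against 52.7, 61.7 and 56.3 CPM. NDUFA1 and NDUFS5 were at −0.05 ± 0.08 and −0.06 ± 0.08 (SE) on the log2 scale, with overlapping groups.

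NDUFA10, a proximal arm subunit with the fold of a nucleoside kinase, was the 1 subunit whose groups did not overlap, and it is named after its values were seen. It was at 97.0, 96.1 and 97.6 CPM in LMB against 102, 101 and 101 CPM in LMB+auxin. Its log2 change was 0.06 ± 0.06 (SE) at an edgeR adjusted p of 0.954, a small difference in the gene with the least spread between replicates in both groups (coefficient of variation 0.768% and 0.515%). That 1 in 37 is 2.70%, against 11.5% of all tested genes whose groups did not overlap. The other 4 genes of the proximal arm, NDUFA3, NDUFA11, NDUFC1 and NDUFC2, ran from −0.09 to 0.06.

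The distal membrane arm held 11 genes, of which 5 lay above and 6 below 0, with a median of 0.00. NDUFB7, a subunit of the intermembrane side, was at 45.1, 49.7 and 44.3 CPM in LMB against 34.1, 46.3 and 46.3 CPM in LMB+auxin. Its log2 change of −0.13 ± 0.12 (SE) came from replicate 1: the pair values were −0.40, −0.10 and 0.07, and without LMB+auxin replicate 1 the fitted change was 0.00. NDUFB11, encoded on the X chromosome, was at 64.9, 71.4 and 68.2 CPM in LMB against 58.5, 66.7 and 66.2 CPM in LMB+auxin. NDUFB3 was at 44.4, 46.6 and 50.3 CPM in LMB against 54.7, 46.8 and 48.2 CPM in LMB+auxin. NDUFB11 was lower in each pair, at −0.10 ± 0.08 (SE), while NDUFB3, at 0.08 ± 0.08 (SE), rested on replicate 1, with pair values of 0.30, 0.00 and −0.06. NDUFB9 was at 59.8, 69.3 and 61.9 CPM in LMB against 57.1, 68.6 and 66.6 CPM in LMB+auxin, with a log2 change of 0.01. The remaining 7 genes of this arm ran from −0.09 to 0.08.

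NDUFA4 carries a complex I name but is assigned to complex IV, cytochrome c oxidase. It was at 99.0, 98.2 and 107 CPM in LMB against 117, 102 and 114 CPM in LMB+auxin, with pair values of 0.24, 0.05 and 0.10. Its log2 change was 0.13 ± 0.08 (SE), second only to NDUFS4, at an edgeR adjusted p of 0.954 without and 0.111 with the block. Its LMB+auxin replicate 2 lay inside the LMB range, so the groups overlapped.

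The median coefficient of variation of the subunits was 4.74% in LMB and 7.23% in LMB+auxin, against 7.98% and 9.45% over all tested genes. The subunits also had the higher counts, with a median of 58.2 CPM against 18.5 CPM over all tested genes, and genes of like level were not compared. NDUFB10 varied the most in both groups, at 13.2% and 19.1%. It was at 44.8, 57.5 and 48.0 CPM in LMB against 40.7, 57.4 and 43.4 CPM in LMB+auxin, with replicate 2 the highest in each. The change had the same sign in all 3 replicate pairs in 16 of 37 genes (43.2%), 6 higher and 10 lower, against 41.9% of all tested genes.

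**Figure D3:**
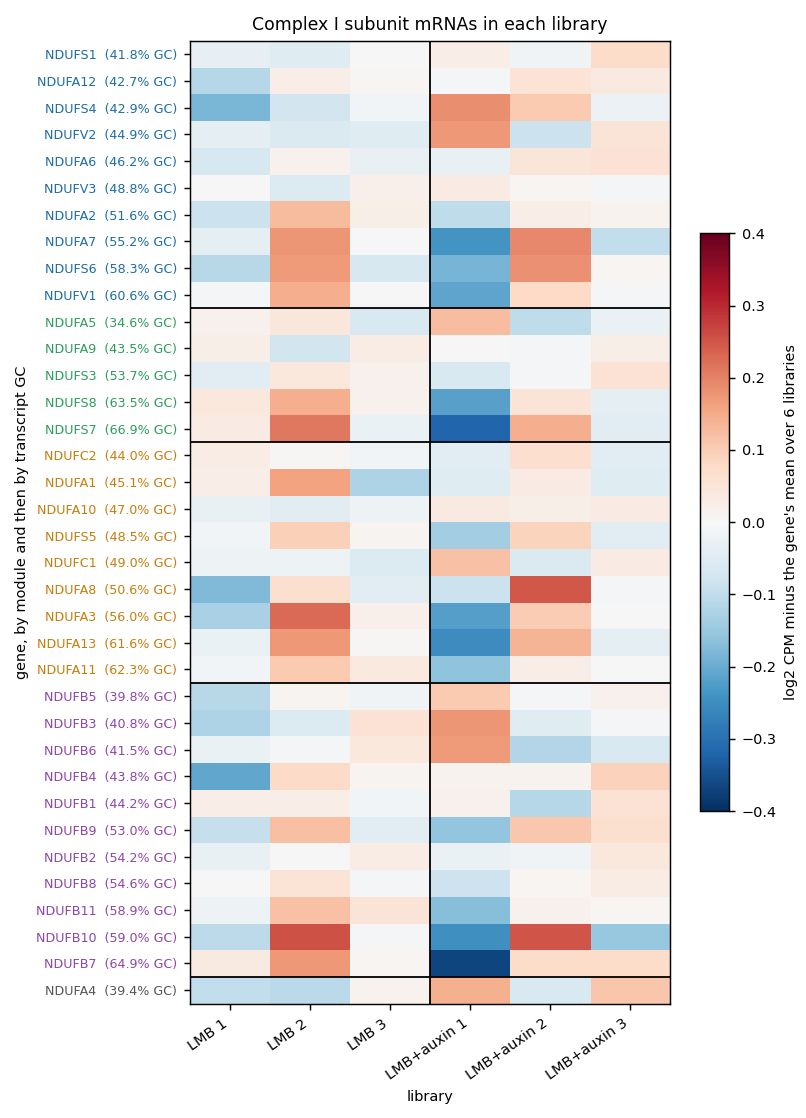
Deviation of log2 CPM from the gene's own mean in all 6 libraries (colour), for 36 of the subunit genes (rows, grouped by module with coloured names and then ordered by transcript GC, in percent) and the 6 libraries (columns). Replicate 2 of both groups is red and LMB+auxin replicate 1 is blue in many of the GC-rich genes at the bottom of each module.

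Across the 37 genes the fitted changes were lower where transcript GC was higher. Of the 18 genes above 50% GC, 14 lay below 0 and 4 above, with a median log2 change of −0.08. Of the 19 genes at or below 50% GC, 14 lay above 0 and 5 below, with a median of 0.05. Tested coding genes did likewise: 70.3% of 5630 above 50% GC were below 0 (median −0.05), and 27.8% of 6609 at or below it (median 0.05). The correlation between transcript GC and log2 change was −0.76 (Pearson) and −0.76 (Spearman) over the 37 genes, and −0.44 and −0.47 over 12239 tested coding genes. With the replicate block it was −0.76 and −0.75 over the 37. These are descriptions across genes that share the same 6 libraries, not tests.

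The order by GC was mainly that of replicate pair 1. The Spearman correlation over the subunits was −0.84 in pair 1, −0.26 in pair 2 and −0.27 in pair 3, and over tested coding genes −0.64, −0.05 and −0.24. In pair 1 the subunits ran from −0.40 (NDUFB7) to 0.37 (NDUFS4), against −0.14 to 0.18 in pair 2 and −0.15 to 0.10 in pair 3. Replicate numbers differed along the same axis when the groups were averaged. The mean of both replicate 2 libraries minus that of both replicate 1 libraries had a Spearman correlation of 0.77 with GC over the subunits. Over tested coding genes it was 0.26. LMB+auxin replicate 1 enters both this difference and pair 1, so this correlation is not independent of that in pair 1. When tested coding genes were cut into 10 classes of equal size by transcript GC, the 4 subunits in the most GC-rich class, NDUFS7, NDUFB7, NDUFS8 and NDUFA11, had a median of −0.13, and the 1224 coding genes of that class had a median of −0.13 as well. When the median of its GC class was subtracted from each gene, the range narrowed from −0.14 to 0.18 down to −0.11 (NDUFS5) to 0.12 (NDUFS4), and the SD over the subunits went from 0.08 to 0.05. What part GC content had in the changes of single subunits was not tested.

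**Figure D4:**
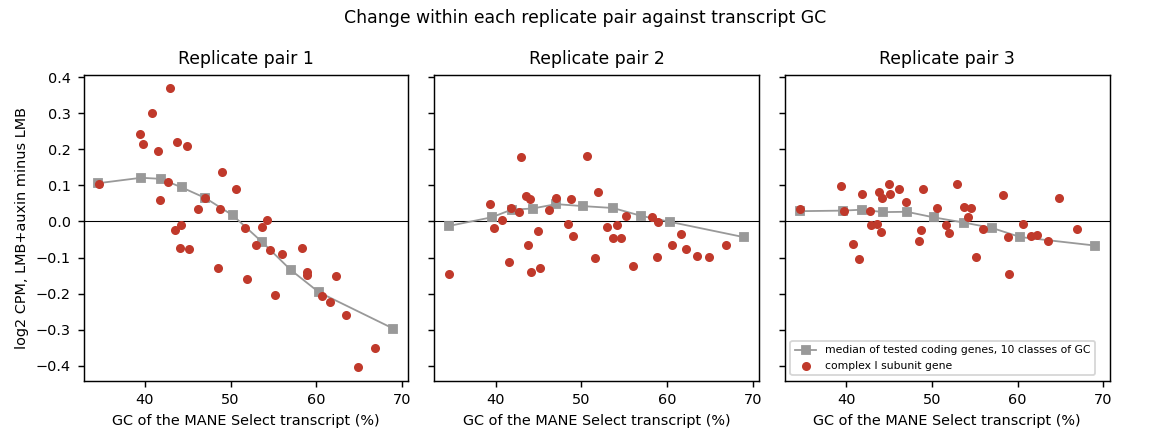
Change in log2 CPM, LMB+auxin minus LMB, within each replicate pair (panels) against the GC content of the MANE Select transcript in percent; red points are the 37 subunit genes and grey squares the median of tested coding genes in 10 classes of GC. In pair 1 both run from above 0 at low GC to −0.30 for the coding-gene median of the most GC-rich class, while in pairs 2 and 3 that median stays between −0.07 and 0.05.

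Position went with the same axis. Chromosome 19, which is rich in GC, held 6 of the 37 genes (NDUFA3, NDUFA7, NDUFA11, NDUFA13, NDUFB7 and NDUFS7), and all 6 lay below 0. Of 827 tested coding genes of that chromosome 75.2% lay below 0, with a median log2 change of −0.07 and a median GC of 60.0%. The span of the gene on the genome correlated with the change at 0.58 (Spearman) over the subunits and 0.37 over tested coding genes, and span and GC were themselves correlated, at −0.40 over the subunits. Transcript length had the lowest of these correlations, at 0.29.

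Shared exons touched many of these genes, and the counts in them may belong to a neighbour. Exonic bases were shared with another counted gene in 19 of 37, and at least 10% of them in 13. NDUFA7, NDUFA13 and NDUFB8 share 32.5%, 16.1% and 33.8% of their exonic bases with unnamed protein-coding genes on the same strand, and NDUFB2 shares 27.9% of its exonic bases with another protein-coding gene on the opposite strand. Over the 24 genes that share under 10%, the median log2 change was −0.01. This limit is on bases and not on reads. The unnamed neighbour of NDUFA13 had a mean count of 2878 beside 2915 for NDUFA13. NDUFA11, kept at 9.65%, had a mean count of 2302 beside 1913 for an unnamed protein-coding gene on its strand. Whether the same reads were counted for both genes was not tested. Processed copies took few reads: 56 pseudogenes named for 18 of the subunits held 0.141% of the counts of subunits and pseudogenes together, and the highest, NDUFV2P1, had a mean count of 29.5.

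The other genes of complex I and of the respiratory chain were described by the same measures. The 7 subunits of complex I encoded by mitochondrial DNA were listed at 0 in all 6 libraries and were not analysed here. Why they were at 0 was not tested, and these zeros are not read as levels of expression. NDUFAB1, the acyl carrier protein that is also a subunit, was at 83.0, 73.5 and 89.7 CPM in LMB against 98.6, 79.2 and 87.9 CPM in LMB+auxin, with a log2 change of 0.11 and an edgeR adjusted p of 0.954. Of the 19 assembly factors, 10 lay above and 9 below 0, with a median of 0.01 and none called. NDUFAF8, needed to build the Q module, was the 1 factor with an unadjusted p under 0.05 without the block. Over all tested genes that share was 4.37%. NDUFAF8 was at 23.7, 24.6 and 24.1 CPM in LMB against 21.6, 20.4 and 21.1 CPM in LMB+auxin, without overlap. Its log2 change was −0.20 ± 0.08 (SE), at an edgeR adjusted p of 0.954 without and 0.0646 with the block. The groups of NDUFAF2, NDUFAF3, NDUFAF6 and TMEM186 did not overlap either, beside 11.5% of all tested genes whose groups did not. The lowest factor by fitted change was TMEM186 at −0.20 ± 0.13 (SE), and the highest NDUFAF4 at 0.16 ± 0.16 (SE). With the block, 3 factors had an unadjusted p under 0.05 on the higher side (NDUFAF2, NDUFAF4 and NDUFAF7) and 2 on the lower (NDUFAF3 and NDUFAF8). Over all tested genes 8.11% were higher and 11.8% lower at that threshold.

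None of the genes of complexes II, III and IV or of ATP synthase was called in either fit. The medians of their log2 changes were 0.03 over 4 genes of complex II, 0.01 over 9 of complex III, 0.00 over 10 of complex IV and 0.03 over 18 of ATP synthase, beside 0.00 over the complex I subunits. The genes at the ends of these lists were the ATP synthase subunits ATP5MC1, at −0.10 ± 0.08 (SE), and ATP5MK, at 0.14 ± 0.11 (SE). At an unadjusted edgeR p under 0.05 none of these lists held a gene without the block. With it, complex II had 1 higher gene, complex III 2 higher and 1 lower, and complex IV 2 higher. ATP synthase had 3 higher and 1 lower, beside 8.11% higher and 11.8% lower over all tested genes. The subunits were next set beside the cytosolic ribosomal protein genes, which are also short. Of 81 tested, 55 lay above and 26 below 0, with a median of 0.03 and none called in either fit. At an unadjusted p under 0.05 there was 1 gene without the block, RPL22L1, and there were 12 higher and 6 lower genes with it. Over all tested genes the shares were 4.37% without the block, and 8.11% higher and 11.8% lower with it. RPL22L1 had a log2 change of 0.27, under the fold minimum, and an edgeR adjusted p of 0.954 without and 0.000128 with the block. Over 622 tested coding genes with under 1500 exonic bases the median was −0.05, and over 410 spanning more than 300 kb it was 0.05. After GC centring these 2 medians were −0.02 and 0.01, and that of the complex I subunits was 0.00. The centred medians cover only the 472 short and 400 long genes with a GC value, so they are not over the same sets.

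Total counts per library ran from 28261903 to 35992425. Markers of colon epithelium were above 1 CPM in 8 of 9 genes, with CDX1 near 0 and KRT8 at 3440 CPM, while 0 of 3 haematopoietic and 0 of 4 fibroblast markers and 1 of 3 endothelial markers (VWF, 3.67 CPM) passed that level. TPR RNA does not report loss of the protein, which was not measured here. Its level went from 166 ± 12 CPM without auxin to 187 ± 3.88 CPM with it (SD over 3 libraries), with an edgeR adjusted p of 0.954 without and 0.0133 with the block at a log2 change of 0.17.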

How the data were processed

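Total RNA was sequenced after removal of ribosomal RNA in 3 LMB and 3 LMB+auxin libraries, grouped by the treatment given in the labels. The authors aligned the reads to GRCh38 and counted them per Ensembl gene; the submitters' processing notes name STAR 2.6.1c and featureCounts 1.5.2. The values were deposited as raw counts per gene, without normalization. The counting setting for strand was not given in the sources used here. Symbols were found for 56948 of 58051 identifiers in GENCODE 44, which uses the same assembly but is a later release than Ensembl 87, the one named by the study; lengths, GC content and coordinates are from GENCODE 44 and promoters from RefSeq (GRCh38.p14).

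Genes with CPM above 1 in at least 3 libraries went into the edgeR 4.0.16 quasi-likelihood test in R 4.3.3 (TMM scaling, robust glmQLFit, all 6 libraries, no covariate). The script was checked on simulated counts. CPM and log2 CPM (prior count of 2 for the pair values) carry the TMM factors. Intervals are 95% confidence intervals of the fitted log2 change, computed from the spread between these libraries, and do not give the range of single libraries. DESeq2 1.42.0 and limma-voom (limma 3.58.1), other scalings and filters, leaving out libraries and a replicate block were alternatives. The study describes its RNA-seq samples as independent biological replicates. The numbers in the sample titles paired the libraries: same-numbered libraries deviated together from their group means, with correlations across genes of 0.531, 0.691 and 0.273 for replicates 1, 2 and 3. Between differently numbered libraries they ran from −0.573 to 0.146, the highest for LMB replicate 1 with LMB+auxin replicate 3. The pairing was thus least clear for replicate 3. The biological coefficient of variation was 0.0989 without and 0.0406 with the block.

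The subunit genes and the lists beside them were chosen with earlier results of these data known, so lists are described by counts and medians with no test of their own. Every library is given for the 3 highest and 3 lowest subunits per exonic kilobase, the 5 largest and 5 smallest changes, the core subunits and NDUFA4, except 1 subunit that enters the counts and medians but is not reported here by name; NDUFA10 and NDUFB10 were added after their values were seen. Genes that are not subunits are named only at the ends of a list or in counts of 5 or fewer.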

Additional observations from a re-analysis of the deposited data

How the results depend on the processing

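No complex I subunit was called in any alternative, and the smallest adjusted p of a subunit was 0.0942, in the fit with the replicate block. The count of genes called over the whole table was 1, and it became 202 with the replicate block, 30 with the replicate block in DESeq2, 11 with DESeq2, 39 with no filter on low counts, 0 on library size alone and 0 to 5 leaving out 1 library, the 5 coming with LMB+auxin replicate 2 left out. With the replicate block and without replicate 1, 2 or 3 of both groups it was 140, 160 and 137. The cause was not tested. The median log2 change over the subunits ran from −0.0227 to 0.0192 leaving out 1 library and was −0.0233 with the replicate block and without replicate 3.

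Changes near 0 took either sign. Of 703 alternative values of single subunits, 71 lay on the other side of 0, of which 48 came from leaving out libraries, and 13 subunits kept their sign in all. Among the subunits with printed changes, NDUFA5 was at −0.001 with the replicate block, −0.0092 on library size alone, −0.0077 with upper-quartile scaling, −0.002 with the FPKM minimum of 1, −0.0009 in limma-voom and −0.0401 with GC centring. NDUFS3 was at 0.0001 with DESeq2 factors and in DESeq2, 0.0002 in DESeq2 with the block and 0.0003 with GC centring. NDUFB9 was at −0.0029 on library size alone, and GC centring put NDUFS1 at −0.0038 and NDUFV3 at −0.0006. With the block and without replicate 1, NDUFA5 and NDUFB3 were at −0.0525 and −0.0312. Without replicate 2, NDUFA1 and NDUFS3 were at 0.0064 and 0.0191, and without replicate 3, NDUFA5 and NDUFB9 at −0.0131 and −0.0339. Leaving out 1 library, NDUFA1 ran from −0.1169 to 0.0332, NDUFA13 from −0.1909 to 0.0004, NDUFA5 from −0.0634 to 0.0509, NDUFB7 from −0.2026 to 0.0, NDUFB9 from −0.0407 to 0.086, NDUFB10 from −0.2529 to 0.0296 and NDUFS3 from −0.0316 to 0.0215. GC centring, the overlap limit and the list without NDUFA4 were chosen after the data were seen. With 3 libraries a group, the intervals of NDUFS7, NDUFB7 and NDUFB10 reached past a 1.3-fold change without the block, and those of all subunits lay inside it with the block.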

Other observations

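The regulators of mitochondrial biogenesis were read beside the subunits. Of 11 such genes, 10 were tested, 5 above and 5 below 0, with a median log2 change of −0.01 and none called in either fit. PPARGC1A, a coactivator of respiratory genes in many tissues, held 2 counts over all 6 libraries and did not pass the CPM minimum. NRF1, the factor whose core letters stand in 6 subunit promoters, was at 10.2, 9.24 and 11.8 CPM in LMB against 10.5, 11.6 and 12.5 CPM in LMB+auxin, with a log2 change of 0.15 ± 0.12 (SE) and an edgeR adjusted p of 0.954 without and 0.315 with the replicate block, and overlapping groups. PPRC1, a relative of PPARGC1A, was the lowest of the list at −0.11 ± 0.08 (SE). YY1, named for its motif, was at 160, 167 and 161 CPM against 152, 160 and 152 CPM, a log2 change of −0.07 ± 0.06 (SE).

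NDUFV1 and NDUFV2, which bind each other at the tip of the N module, were at −0.09 and 0.10, and their transcripts had 60.6% and 44.9% GC. Without LMB+auxin replicate 1 the changes were −0.0121 and 0.0333, and with GC centring they were −0.0155 and 0.0450. This pair was picked after its values were seen and the difference within it was not tested.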
